A study of Mus musculus with 10 samples.

Results

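Interferon response genes are the genes that cells switch on when they sense interferon, and 37 of them were followed here across the 10 arrays of the study. Members were found as the probes whose RefSeq accession belongs to a listed gene, and 35 of the 37 had such a probe among the 20972 genes named on the array. No probe carried an accession that the RefSeq table lists for Mx1 or Mx2, so both are not analysed here. By role, the 35 comprised 9 type I-type genes (Isg15, the Ifit genes and the Oas genes), 6 gamma-type genes (Igtp, Irgm1, Irgm2, Gbp2, Gbp3 and Iigp1), 10 other antiviral effectors, 3 RNA sensors, 4 transcription factors and 3 antigen processing genes.

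RNA came from donor cells (CD45.2) of the LSK gate in the bone marrow of transplanted mice of the C57BL/6 strain. LSK cells lack lineage markers and carry Sca-1 and c-Kit, and include the stem cells of blood with their nearest progeny. Wild-type (WT) donor cells had the genotype Cre-Ert, a Cre recombinase that tamoxifen switches on, and knockout (KO) donor cells the genotype Cre-Ert;Ezh2fl/fl, in which tamoxifen removes Ezh2, the methyltransferase of Polycomb repressive complex 2. All groups therefore carried the Cre and, per the series description, followed tamoxifen and transplantation. The groups at 3 months after transplantation were 1 WT and 1 KO array, both without disease, and at 9-12 months 1 WT array without disease and 7 KO arrays. The 7 were 2 labelled myelodysplastic syndrome (MDS), 3 labelled MDS with myeloproliferative neoplasm (MDS/MPN), 1 of undetermined disease and 1 mixed sample of several diseases. MDS/MPN replicate 1 has the unexplained addition TC in its disease label, and replicate 3 the addition CMMoL in its source label. The sources used here state neither mouse age nor whether mice were pooled for the WT, mixed and 3-month KO arrays. For 3 months n=3 is stated in the design text, but each genotype had 1 array.

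Type I interferons signal through the Ifnar1 and Ifnar2 receptor to transcription factors that include Stat2 and Irf9, which bind the interferon-stimulated response element (ISRE) of genes such as Isg15, Ifit1 and Oas2. Interferon gamma signals through Ifngr1 and Ifngr2 to genes with a gamma-activated site (GAS), and induces Irf1 and the interferon-inducible GTPases of the Irg and Gbp families. The sets overlap, since either kind of interferon induces many of these genes. In bone marrow, interferons are known to drive resting blood stem cells into division.

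The type I-type and gamma-type genes share promoter sequence that their selection did not use, and 5 promoters are shown as examples that hold an ISRE or GAS sequence. RefSeq promoter windows of GRCm38.p6, from 250 bases before to 50 after the start, were held for 28 of the 37 members. The ISRE core (GAAA, 2 bases of any kind, GAAA), searched on both strands, stood in 17 of the 28 (60.7%), against 3.99% of the 27025 genes of the table, each gene counted once if any of its windows held it. The GAS core TTCNNNGAA, which reads the same on both strands, stood in 7 of the 28 (25%), against 9.55% of all genes. The ISRE core was in 5 of 5 gamma-type windows, in 5 of 8 type I-type windows and in 0 of 3 antigen processing windows, and 4 members held both cores. The GAS core was in 2 of 5 gamma-type and 2 of 8 type I-type windows, so each core stood in both sets. In the Bst2 window the cores overlap. A match is a description of these letters, not a binding site. Below are the last 120 bases before the start, 5′ to 3′ on the strand of the gene, with core matches in capitals, at chr4:156200819-156200938 (minus strand), chr19:34640769-34640888, chr11:58199436-58199555, chr3:142620543-142620662 and chr11:53769894-53770013 (plus strand) in that order.
Isg15: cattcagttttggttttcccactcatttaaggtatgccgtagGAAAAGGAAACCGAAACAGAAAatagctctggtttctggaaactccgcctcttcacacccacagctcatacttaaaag
Ifit1: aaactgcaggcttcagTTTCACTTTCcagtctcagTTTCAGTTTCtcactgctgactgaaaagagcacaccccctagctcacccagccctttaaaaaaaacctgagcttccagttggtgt
Igtp: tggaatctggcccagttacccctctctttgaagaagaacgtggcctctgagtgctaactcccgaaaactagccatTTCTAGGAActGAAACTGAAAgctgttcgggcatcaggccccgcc
Gbp2: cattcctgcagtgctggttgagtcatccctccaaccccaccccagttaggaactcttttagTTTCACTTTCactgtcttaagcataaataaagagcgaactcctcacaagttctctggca
Irf1: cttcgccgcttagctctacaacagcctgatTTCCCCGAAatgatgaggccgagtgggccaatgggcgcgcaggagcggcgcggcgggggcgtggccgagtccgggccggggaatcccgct
Isg15 carries 3 overlapping ISRE cores, and Ifit1 carries 2, which are on the opposite strand. Igtp has a GAS core followed by an ISRE core, Gbp2 has 1 ISRE core on the opposite strand, and Irf1 has a GAS core alone.

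Levels below are log2 signal of the brightest probe of a gene minus the log2 of the 75th percentile signal of its array, so 0 is the 75th percentile and 1 unit is 2-fold. They compare arrays for 1 gene and not 1 gene with another. The 75th percentile was 78.7 to 301.7 intensity units, with MDS/MPN replicate 2 the brightest array, and 32.5% (MDS/MPN replicate 1) to 47.5% (MDS/MPN replicate 2) of the 55681 probes were well above background. Slide 1 held the 2 arrays labelled 3 months and slide 2 the other 8. The value table gives 4 arrays the time label of the opposite slide, so pairs are named by slide as well as by time. The closest of the 45 pairs of arrays was the WT array of slide 2 and the mixed KO array (SD of the log2 difference 0.31 over 14304 features), and the most distant was the WT array of slide 1 and the undetermined array (1.21). The Ezh2 probe read 2.13 on the WT and 2.70 on the KO array of slide 1, and on slide 2 it read 2.63 on the WT, 2.63 on the mixed KO and 2.13 to 3.35 on the other 6 KO arrays, so the genotypes overlapped. The sources used here do not say whether this probe lies in the deleted part, so it does not check the labels. Kit, Ly6a and the other LSK genes were measured, with 5 or 6 of 6 well above background on each array.

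No member passed the test in any comparison, and the values below describe where the members were high and low. In the limma fit of the 6 unmixed KO arrays of 9-12 months against slide 2's WT array, 0 of 35 members had an adjusted p under 0.05, against 0.587% of the 19597 features tested. In MDS/MPN against MDS 0 of 35 did, against 0% of 20727 features, and in all 8 KO against both WT arrays, with slide as a block, 0 of 35 did, against 0.0134% of 22371 features. At an unadjusted limma p under 0.05 there were 0 members at 9-12 months, beside 1.42% of features higher and 3.25% lower. In MDS/MPN 5 members were higher and 0 lower, beside 1.5% and 2.95% of features. In all KO 0 were higher and 1 lower, beside 1.9% and 3.65%. All 35 measured members passed the filter on low signal in all 3 comparisons, and 28 were well above background on every array. Each slide had 1 WT array, whose spread was taken to equal that of the KO arrays, and p values measure the spread between these arrays.

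The plainest difference in the values was between the arrays of slide 1, where the KO array had the higher signal for most members. Of 35 members, 29 were higher on the KO array, beside 62.2% of all 22436 features, and 16 were at least 2-fold higher, beside 12.9%. Only Ifih1 was at least 2-fold lower, beside 12.2% of features. The median difference was 0.97 over the members and 0.23 over all features, and 0.59 and -0.14 when arrays were scaled to the 75th percentile of probes detected on every array. With 1 array per genotype there is no replicate check and no test of this pair. On slide 2 the mixed KO array differed from the WT array by a median of 0.09 (all features 0.01), with 23 of 35 members higher, beside 52.1% of features. Ifit2 was at least 2-fold higher, beside 4.51% of features, and 0 members 2-fold lower, beside 4.35%. The WT array of slide 1 was itself a median of 0.14 below the WT array of slide 2 over the members (13 of 35 higher, beside 50.8% of features), with 3 members at least 2-fold higher, beside 14.1% of features, and 5 at least 2-fold lower, beside 9.91%.

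**Figure D1:**
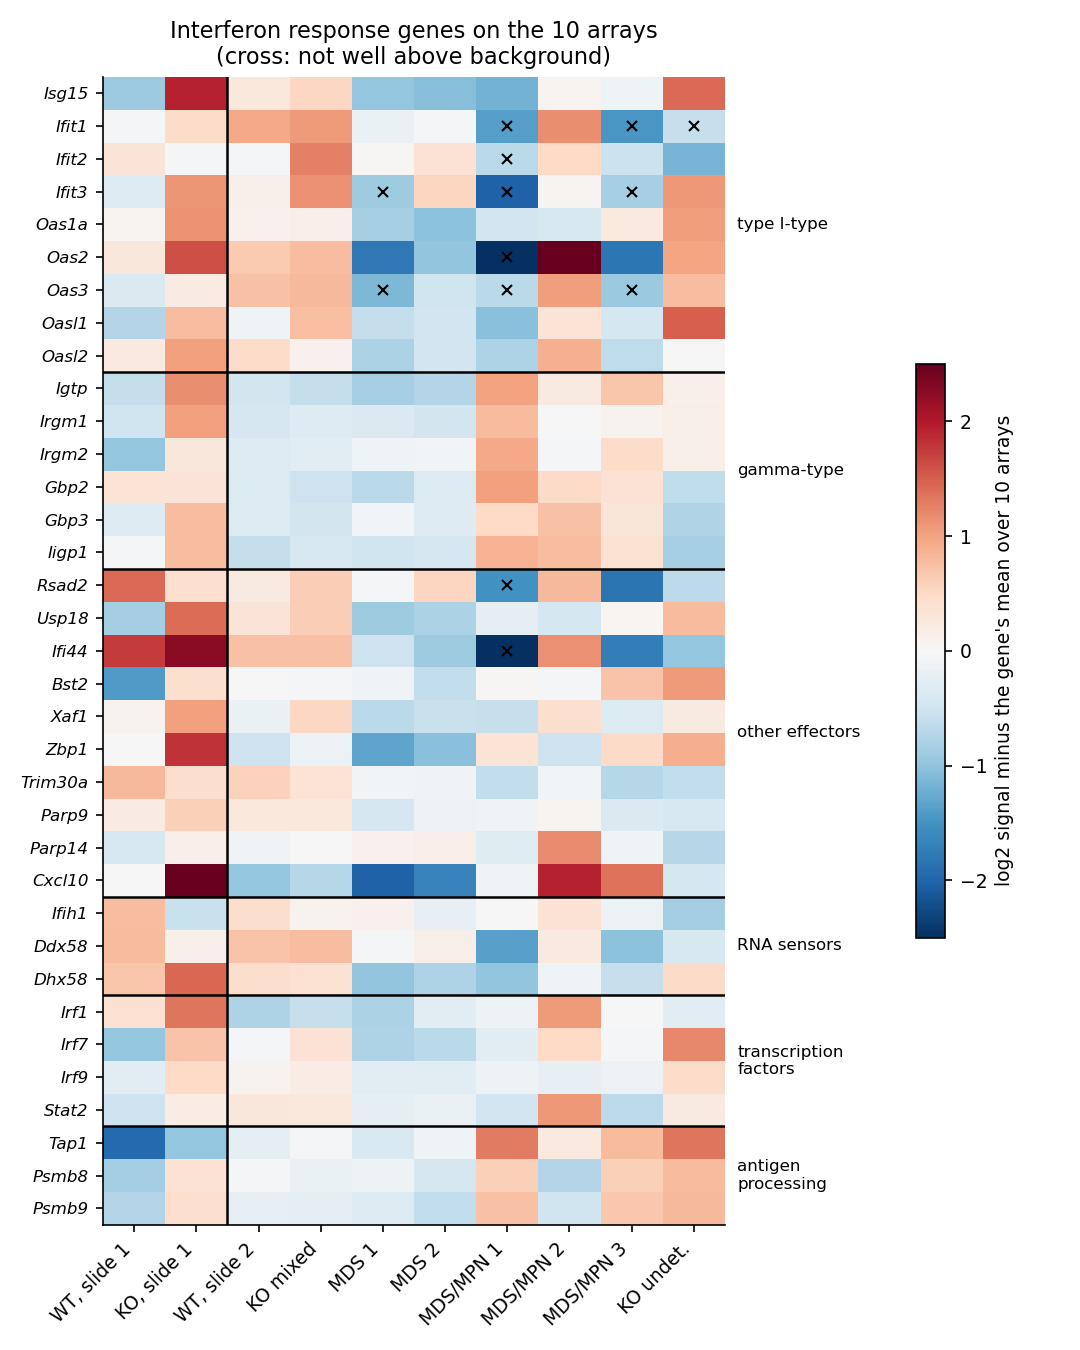
Map of the log2 signal of 35 interferon response genes (rows, by role) on 10 arrays (columns), each as the difference from the mean of its gene, with crosses where a probe was not well above background and the colour scale ending at 2.5 in each direction. The KO array of slide 1 held the highest value of 15 of the 35 genes, and MDS replicate 1 the lowest of 11.

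Among the transcription factors, Irf7, which amplifies type I interferon production, read -1.01 on the WT and 0.67 on the KO array of slide 1, a 3.20-fold difference. On slide 2 it read -0.08 on the WT, 0.31 on the mixed KO, -0.82 and -0.72 on the MDS, -0.33, 0.45 and -0.08 on the MDS/MPN and 1.15 on the undetermined array. The MDS/MPN values lay above both MDS values, and the 6 KO arrays lay on both sides of the WT. Irf1, a factor that interferon gamma induces, read 5.56 on the WT and 6.53 on the KO array of slide 1. On slide 2 its values were 4.42 on the WT, 4.61 on the mixed KO, 4.39 and 4.92 on the MDS, 5.07, 6.25 and 5.20 on the MDS/MPN and 4.92 on the undetermined array. Here 5 of 6 KO arrays were above the WT array of slide 2, and only MDS/MPN replicate 2 was above that of slide 1.

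Irf9, the DNA-binding part of the type I complex, varied least of the 4. It read 3.99 on the WT and 4.76 on the KO array of slide 1, and on slide 2 4.35 on the WT, 4.44 on the mixed KO, 3.99 and 3.99 on the MDS, 4.13, 4.05 and 4.11 on the MDS/MPN and 4.71 on the undetermined array. The undetermined array was thus the only one of the 6 above the WT. Stat2, its partner, read 0.77 and 1.48 on the WT and KO arrays of slide 1. On slide 2 Stat2 read 1.57 on the WT, 1.54 on the mixed KO, 1.04 and 1.13 on the MDS, 0.81, 2.36 and 0.64 on the MDS/MPN and 1.51 on the undetermined array. Of the 6 KO arrays, MDS/MPN replicate 2 alone was above the WT. The 4 factors had a median difference of 0.87 on slide 1 and of -0.08 for the 6 KO arrays against the WT on slide 2.

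The type I-type genes were higher on the KO array of slide 1 and, in the 9-12 month fit, lower in the KO arrays, without passing the test. On slide 1, 8 of 9 were higher in KO, with a median of 1.04 and 5 at least 2-fold higher. Under quantile normalization that median was 0.57, beside 0.06 over all features. At 9-12 months the mean of the 6 KO arrays was below the WT array for 9 of 9, with a median of -0.58 (all features -0.01) and limma adjusted p = 0.9999 for each. Yet 0 of 9 were below it on all 6 KO arrays, beside 13.9% of features. On MDS/MPN replicate 2 and on the undetermined array 6 of 9 were above the WT. On the MDS arrays 1 and 2 were, and on MDS/MPN replicates 1 and 3 0 and 1. The 6 KO arrays spread widely: the median SD over them was 0.91 for the type I-type genes, 0.62 for the gamma-type genes and 0.54 for all 19597 features.

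Isg15, a ubiquitin-like protein that is joined to other proteins, showed the largest slide 1 difference of any member, 2.92 on the WT and 5.75 on the KO array (7.12-fold). On slide 2 it read 4.09 on the WT, 4.34 on the mixed KO, 2.85 and 2.76 on the MDS, 2.64, 3.89 and 3.72 on the MDS/MPN and 5.23 on the undetermined array. All 5 MDS and MDS/MPN arrays were below the WT, and the undetermined array was above it. A second Isg15 probe gave a slide 1 difference of 2.76.

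Oas2, which makes the second messenger that activates RNase L, read 0.17 on the WT and 1.51 on the KO array of slide 1. On slide 2 Oas2 read 0.56 on the WT, 0.67 on the mixed KO, -1.89 and -1.10 on the MDS, -2.82, 2.91 and -1.91 on the MDS/MPN and 0.88 on the undetermined array. MDS/MPN replicate 2 was the highest of the 10, while replicate 1 was not well above background, so its value shows only that the level was low. The KO minus WT difference was -1.21 ± 1.79 (SE, 6 KO and 1 WT, limma adjusted p = 0.9999), and it was -0.78 without MDS/MPN replicate 1 and -1.92 without replicate 2. It was -0.54 under another background correction (normexp, with quantile normalization) and -2.05 with the MDS arrays alone. Oasl1, an Oas-like protein, read 2.40 and 3.89 on the WT and KO arrays of slide 1. Its slide 2 values were 3.04 on the WT, 3.89 on the mixed KO, 2.54 and 2.66 on the MDS, 2.08, 3.47 and 2.69 on the MDS/MPN and 4.62 on the undetermined array. The undetermined array was the highest of the 10.

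Ifit1 and Ifit3, which bind foreign RNA and partner proteins, were dim. Ifit1 read -2.34 on the WT and -1.84 on the KO array of slide 1, and -1.36 on the WT and -1.24 on the mixed KO array of slide 2. In the other KO arrays Ifit1 read -2.48 and -2.33 for MDS, -3.68, -1.14 and -3.75 for MDS/MPN and -2.88 for the undetermined array. Of these, MDS/MPN replicates 1 and 3 and the undetermined array were not well above background, so their values show only that the level was low. Ifit3 read -2.13 and -0.69 on the WT and KO arrays of slide 1, and -1.65 on the WT and -0.66 on the mixed KO array of slide 2. Its MDS values were -2.69 and -1.26, its MDS/MPN values -3.83, -1.73 and -2.63, and its undetermined value -0.71. MDS replicate 1 and MDS/MPN replicates 1 and 3 were not well above background for Ifit3.

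The other type I-type genes, Ifit2, Oas1a, Oas3 and Oasl2, differed by -0.38 to 1.04 between KO and WT on slide 1. Each of the 4 had a 6 KO mean below the WT of slide 2, and Oas1a alone had all 3 MDS/MPN values above both MDS values.

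The gamma-type genes were higher in MDS/MPN than in MDS for 6 of 6, with no overlap between the groups. Of all 35 members, 15 were higher in MDS/MPN without overlap and 0 lower, beside 7.75% and 12% of the 20727 features. The gamma-type median difference was 0.92 in MDS/MPN against MDS, beside -0.02 over all features. In the 6 KO arrays against the WT of slide 2 the gamma-type median was 0.50, beside -0.01 over all features. Of the type I-type genes, 1 of 9 was higher in MDS/MPN without overlap. None of the 6 passed the limma test over all features.

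Igtp, an interferon-inducible GTPase of the Irg family, read 3.91 and 4.01 on the MDS arrays and 5.75, 4.96 and 5.43 on the MDS/MPN arrays. The difference was 1.42 ± 0.38 (SE, 3 against 2 arrays, limma adjusted p = 0.99), or 2.67-fold. Elsewhere Igtp read 4.14 on the WT and 5.90 on the KO array of slide 1, and 4.28 on the WT, 4.14 on the mixed KO and 4.86 on the undetermined array of slide 2. Both MDS arrays lay below every other array.

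Gbp2, a guanylate-binding protein that acts at the membranes around microbes, read 2.87 and 3.20 on the MDS and 4.57, 4.03 and 3.92 on the MDS/MPN arrays. The difference was 1.14 ± 0.37 (SE, 3 against 2 arrays, limma adjusted p = 0.99). On slide 1 Gbp2 read 3.88 on both arrays, the only gamma-type gene without a higher KO value there, and on slide 2 it read 3.20 on the WT, 3.04 on the mixed KO and 2.92 on the undetermined array. Iigp1, another Irg GTPase, read 0.44 and 0.52 on the MDS and 1.80, 1.70 and 1.31 on the MDS/MPN arrays, a difference of 1.13 ± 0.34 (SE, 3 against 2 arrays, limma adjusted p = 0.99). It read 0.88 and 1.70 on the WT and KO arrays of slide 1, and 0.34 on the WT, 0.54 on the mixed KO and 0.11 on the undetermined array of slide 2.

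Irgm1 and Irgm2, regulators of the other Irg GTPases, followed the same order with smaller differences. Irgm1 read 3.42 and 3.33 on the MDS and 4.58, 3.80 and 3.87 on the MDS/MPN arrays, with 3.30 and 4.82 on the WT and KO of slide 1, and 3.37 on the WT, 3.47 on the mixed KO and 3.93 on the undetermined array of slide 2. Irgm2 read 2.86 and 2.89 on the MDS and 3.91, 2.91 and 3.42 on the MDS/MPN arrays, so its groups were apart by only the gap between MDS replicate 2 and MDS/MPN replicate 2. Its other values were 1.99 and 3.25 on the WT and KO of slide 1, and 2.62 on the WT, 2.69 on the mixed KO and 3.11 on the undetermined array of slide 2. All 6 KO arrays were above the WT for Irgm2, as for 9.28% of the 19597 features. Gbp3 was 0.71 higher in MDS/MPN and 1.11 higher on the KO array of slide 1.

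**Figure D2:**
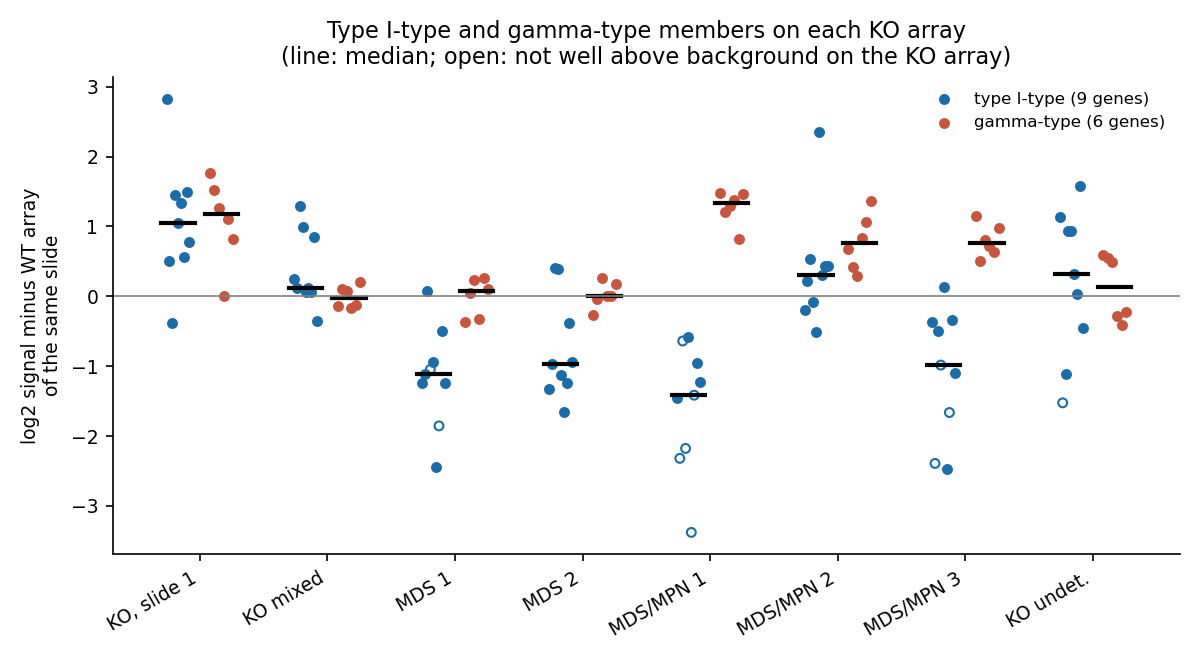
Difference in log2 signal between each KO array and the WT array of its slide for the 9 type I-type genes (blue) and the 6 gamma-type genes (red), with black lines at the medians and open points where the KO array was not well above background. The gamma-type medians were 1.33, 0.76 and 0.76 on the MDS/MPN arrays and 0.07 and 0.00 on the MDS arrays, where the type I-type medians were -1.41, 0.31 and -0.98, and -1.12 and -0.97.

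The values of both sets on single arrays stood on opposite sides of the WT in places. On MDS/MPN replicate 1 all 6 gamma-type genes were above the WT array and all 9 type I-type genes below it, with 4 of those 9 well above background. With dim values raised to the lowest detected signal of their array, the type I-type median there was -0.96, and on MDS/MPN replicate 3 -0.58. On the KO array of slide 1 both sets were high, with medians of 1.04 and 1.19, and on the mixed array both were near the WT, at 0.12 and -0.03. The undetermined array gave 0.32 for the type I-type and 0.13 for the gamma-type genes. These arrays share 1 WT array on slide 2, so a deviation of that array would enter each difference.

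Disease label and line of the slide coincide: both MDS arrays lay in line 1 and the MDS/MPN arrays in line 2, so disease and position cannot be told apart. The WT array of slide 2 lay in line 1 and the undetermined array in line 2. The comparison of KO with WT at 9-12 months therefore mixes genotype and line in part. With the MDS arrays alone, in the line of the WT, its gamma-type median was 0.07. In MDS/MPN against MDS, leaving out MDS/MPN replicate 2 gave a gamma-type median of 0.97, and the type I-type median turned to -0.21. The median over all members was then 0.16, beside 0.15 over all features. The count of members at an unadjusted limma p under 0.05 was then 12 higher and 6 lower, beside 19.0% and 11.1% of the 21533 features tested in that fit, and the smallest adjusted p was 0.12. It was 1 higher without MDS replicate 1, 1 of 33 higher without MDS replicate 2 and 2 higher without MDS/MPN replicate 1, beside 0.775%, 0.434% and 1.45% of features. Without any 1 of the 5 arrays, the gamma-type median was 0.83 to 1.04.

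The other antiviral effectors were led by Cxcl10, a chemokine that draws T cells and NK cells. Cxcl10 read -1.03 and -0.67 on the MDS and 0.91, 2.93 and 2.35 on the MDS/MPN arrays, a difference of 2.91 ± 0.65 (SE, 3 against 2 arrays, limma adjusted p = 0.99), or 7.51-fold. It read 0.98 on the WT and 3.60 on the KO array of slide 1 (6.15-fold), and 0.03 on the WT, 0.28 on the mixed KO and 0.56 on the undetermined array of slide 2. The MDS arrays were the lowest of the 10, and the KO array of slide 1 the highest. Zbp1, a sensor of Z-form nucleic acid, read 1.43 and 1.69 on the MDS and 3.09, 2.23 and 3.22 on the MDS/MPN arrays, a difference of 1.29 ± 0.43 (SE, 3 against 2 arrays, limma adjusted p = 0.99). Zbp1 read 2.74 and 4.55 on the WT and KO of slide 1, and 2.23 on the WT, 2.59 on the mixed KO and 3.65 on the undetermined array of slide 2.

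Bst2, which tethers budding viruses to the cell, read 3.63 on the WT and 5.46 on the KO array of slide 1. On slide 2 Bst2 read 5.06 on the WT, 5.02 on the mixed KO, 4.97 and 4.44 on the MDS, 5.08, 5.02 and 5.78 on the MDS/MPN and 6.12 on the undetermined array. The WT array of slide 1 was the lowest of the 10. Ifi44, an interferon-induced protein of the cytoplasm, read 1.77 and 2.27 on the WT and KO of slide 1, and 0.75 on the WT, 0.76 on the mixed KO, -0.50 and -0.87 on the MDS, -2.48, 1.17 and -1.71 on the MDS/MPN and -0.94 on the undetermined array of slide 2. Of the 6 KO arrays only MDS/MPN replicate 2 was above the WT, replicate 1 was not well above background, and the KO minus WT difference was -1.64 ± 1.07 (SE, 6 KO and 1 WT, limma adjusted p = 0.9999). It was -0.94 under normexp and -2.65 with the time labels of the value table.

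Among the rest of the effectors, Usp18, the protease that removes Isg15 and damps type I signalling, read 0.88 on the WT and 3.11 on the KO array of slide 1 (4.69-fold), and 2.05 on the WT array of slide 2. Rsad2, the antiviral enzyme viperin, was lower in KO on slide 1, at 0.68 against 1.67. Trim30a and Parp9 were below the WT on 6 of 6 KO arrays at 9-12 months, and so were the sensors Ifih1 and Ddx58, which makes 4 of 35 members beside 13.9% of all features. Xaf1 and Parp14 differed by 0.94 and 0.56 on slide 1. These 6 were named after their values were seen, apart from being members.

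**Figure D3:**
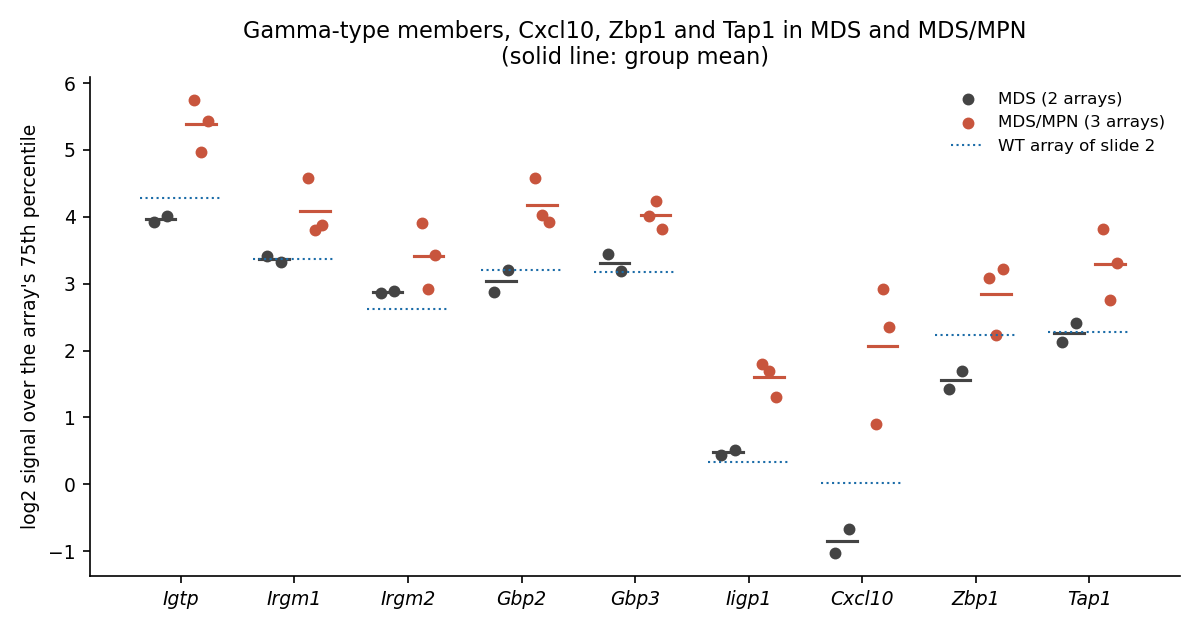
Log2 signal over the 75th percentile of the array for the 6 gamma-type genes, Cxcl10, Zbp1 and Tap1 on the 2 MDS arrays (dark points) and the 3 MDS/MPN arrays (red points), with solid lines at group means and dotted lines at the WT array of slide 2. In each of the 9 genes the 3 MDS/MPN points lie above both MDS points, with Cxcl10 the farthest apart at 2.91. The 9 are a selection: this held for 15 of all 35 members, beside 7.75% of the 20727 features. In the roles of the 3 added genes it held for 4 of 10 other antiviral effectors and 1 of 3 antigen processing genes.

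The RNA sensors, which detect viral RNA in the cytoplasm, were lower in KO at 9-12 months for 3 of 3, with a median of -0.93 and no limma adjusted p under 0.05. Ifih1 (MDA5) read 1.79 on the WT and 0.46 on the KO array of slide 1, and on slide 2 1.46 on the WT, 1.11 on the mixed KO, 1.13 and 0.81 on the MDS, 1.01, 1.37 and 0.87 on the MDS/MPN and 0.14 on the undetermined array. All 8 KO arrays were below the WT of their slide for Ifih1. On the 6 unmixed KO arrays of 9-12 months alone, 13.9% of the 19597 features were all below the WT. The difference of Ifih1 was -0.82 ± 0.37 (SE, 8 KO and 2 WT arrays, slide as a block, limma adjusted p = 0.90). Without the KO array of slide 1 it was -0.53, and as the median over the probes of Ifih1 it was -0.44. That median takes in a second probe that was well above background on 0 arrays. Ddx58 (RIG-I) read 3.16 and 2.49 on the WT and KO of slide 1, and 3.08 on the WT, 3.13 on the mixed KO, 2.33 and 2.52 on the MDS, 1.01, 2.61 and 1.33 on the MDS/MPN and 1.96 on the undetermined array of slide 2. The mixed array was the only KO array not below its WT for Ddx58, and the difference at 9-12 months was -1.12 ± 0.65 (SE, 6 KO and 1 WT, limma adjusted p = 0.9999), or -0.66 with the MDS arrays alone. Dhx58 (LGP2), a regulator of both, went the other way on slide 1, 1.93 on the WT and 2.66 on the KO. On slide 2 Dhx58 read 1.67 on the WT, 1.62 on the mixed KO, 0.25 and 0.46 on the MDS, 0.24, 1.12 and 0.67 on the MDS/MPN and 1.70 on the undetermined array.

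The antigen processing genes were higher on the KO array of slide 1 for 3 of 3 and, at 9-12 months, varied by array. Tap1, which carries peptides into the endoplasmic reticulum, read 0.57 and 1.54 on the WT and KO of slide 1, and 2.28 on the WT, 2.48 on the mixed KO, 2.13 and 2.41 on the MDS, 3.81, 2.75 and 3.30 on the MDS/MPN and 3.85 on the undetermined array of slide 2. Its MDS/MPN values were above its MDS values, a difference of 1.02 ± 0.43 (SE, 3 against 2 arrays, limma adjusted p = 0.99). Psmb8, an immunoproteasome subunit, read 6.00 and 7.23 on the WT and KO of slide 1, and 6.81 on the WT, 6.70 on the mixed KO, 6.73 and 6.43 on the MDS, 7.45, 6.13 and 7.45 on the MDS/MPN and 7.66 on the undetermined array of slide 2. Psmb9, another such subunit, read 6.01 and 7.15 on slide 1, and 6.53 on the WT, 6.51 on the mixed KO, 6.39 and 6.12 on the MDS, 7.46, 6.23 and 7.41 on the MDS/MPN and 7.54 on the undetermined array of slide 2. For both subunits MDS/MPN replicate 2 was below the WT array, while replicates 1 and 3 and the undetermined array were above it.

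**Figure D4:**
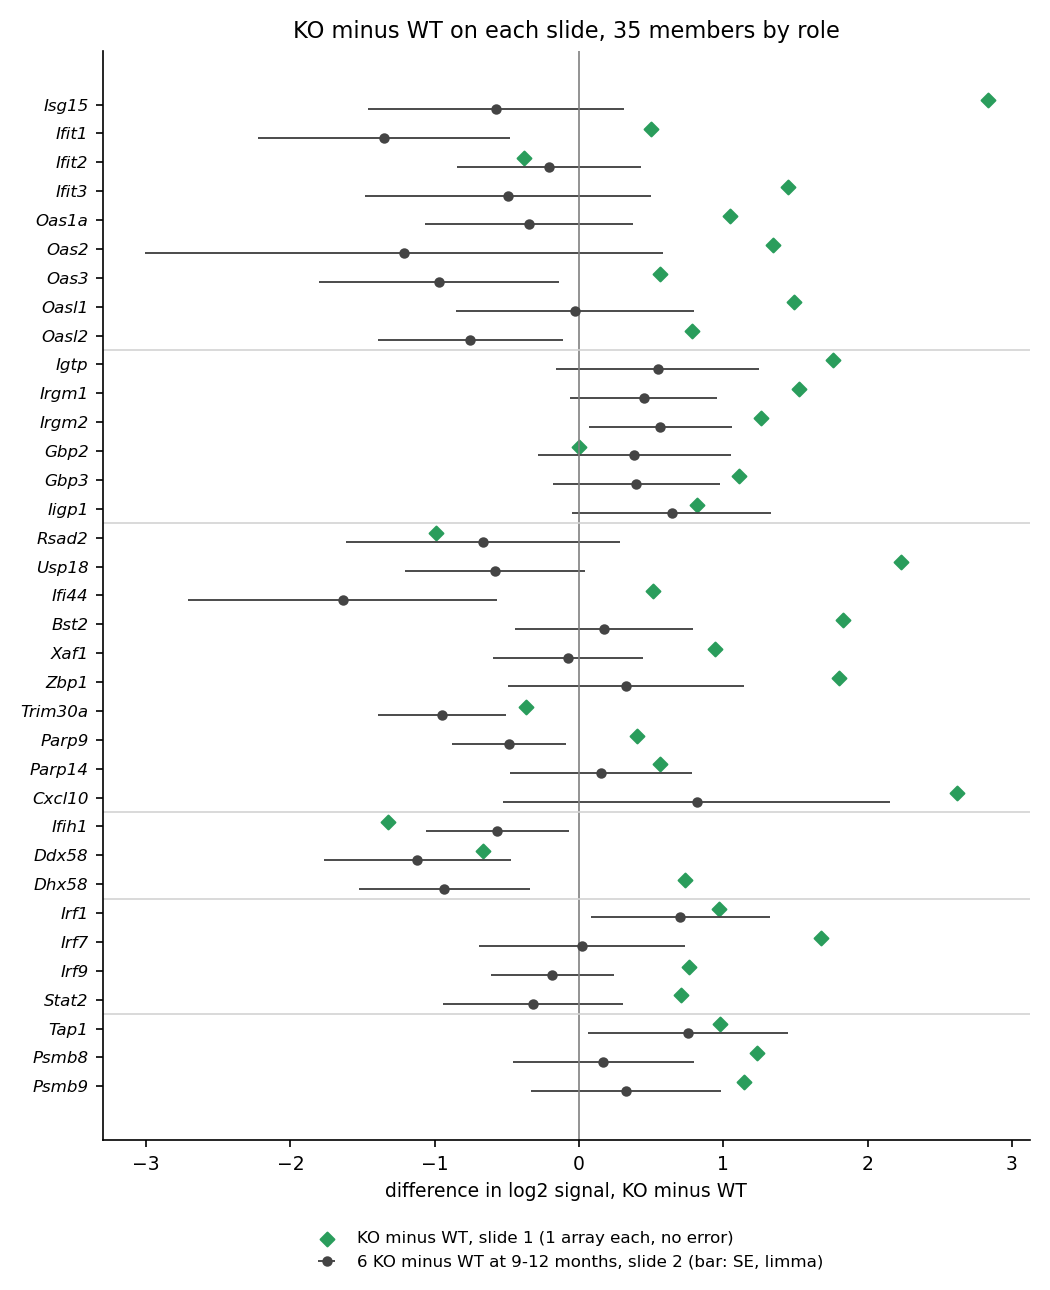
KO minus WT difference in log2 signal for 35 members by role, as single values on slide 1 (green diamonds, 1 array each, no error) and as the mean of 6 KO arrays against the WT array of slide 2 (dark points, bars are limma SE). Isg15 lies at 2.83 on slide 1 and at -0.58 at 9-12 months, while the 6 gamma-type points at 9-12 months lie between 0.38 and 0.64.

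The slides differed in which members stood out, and the difference itself was tested in a fit chosen after seeing the data. Of 35 members, 0 had an adjusted limma p under 0.05 for KO minus WT on slide 1 against 9-12 months, as did 0% of 23307 features. At an unadjusted limma p under 0.05, 2 members had the larger KO effect on slide 1, beside 2.6% of features, and 0 the smaller, beside 2.42%. They were Isg15 (3.41 ± 1.47, SE, limma adjusted p = 0.97) and Usp18 (2.81 ± 1.04, SE, limma adjusted p = 0.81). In all 8 KO against both WT arrays, the member medians were 0.72 for the gamma-type and -0.13 for the type I-type genes, beside 0.04 over all features. Without the slide 1 KO array they were 0.42 and -0.46.

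The interferons themselves were barely detected. Of 18 ligand genes, 14 had a probe, and 7 of the 14 (Ifnb1, Ifna2, Ifna4, Ifna11, Ifna13, Ifne and Ifnk) were well above background on 0 arrays. Ifng, the gene of interferon gamma, was above background on 1 array, MDS/MPN replicate 2, at -2.49. Ifnl3, a type III interferon, was above background on 9 arrays, at 1.12 and 1.47 on slide 1 and -2.60 to -1.03 on slide 2. Ifnab and Ifna14 were above background on 2 and 3 arrays, and Ifna1 and Ifna5 on 2 and 1. Ifna12 was above background on 1 array, the undetermined array, at -0.25.

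Of 14 receptor and signalling genes on the array, 12 were tested at 9-12 months, with 0 passing in either direction. Socs1, a feedback inhibitor of the JAK kinases, was above the WT array on 6 of 6 KO arrays, by 1.59 ± 0.66 (SE, 6 KO and 1 WT, limma adjusted p = 0.95), but the difference turned to -0.10 with the time labels of the value table. Its level was 1.30 on the WT and 1.32 on the KO array of slide 1. Tyk2, a kinase of the type I receptor, differed by 0.79 ± 0.37 and Socs3, another feedback inhibitor, by -0.70 ± 0.96 in all KO against both WT (SE, 8 KO and 2 WT arrays, limma adjusted p = 0.90 and 0.97). Without the slide block these were 1.26 and -1.51, and Tyk2 differed by 0.49 under normexp.

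Of 14 nucleic acid sensing genes, 13 were tested at 9-12 months with 0 passing. Of 51 other interferon-induced genes, 46 had a probe, and of these 40 were tested at 9-12 months, 41 in MDS/MPN against MDS and 42 in all KO against both WT, with 0 passing. Their median was 0.46 in MDS/MPN against MDS. Of the 41 tested there, 8 were higher in MDS/MPN without overlap and 1 lower, beside 7.75% and 12% of features. The 8 include Gbp5, Gbp6, Tgtp2 and Nlrc5, each well above background on all 5 arrays. Cxcl9, a chemokine that interferon gamma induces, read -1.39 and -2.27 on the MDS, and 1.24, -1.66 and 2.11 on the MDS/MPN arrays, so the groups overlapped. On slide 1, 42 of the 46 were measured. Of these 12 were at least 2-fold higher on the KO array, beside 12.9% of features, and 3 at least 2-fold lower, beside 12.2%. Irf8, a myeloid factor, read 2.25 on the WT and 5.42 on the KO array of slide 1. Ifi27l2a, an interferon-induced membrane protein, read 3.97 and 7.43 there, while Gbp4 went the other way, at -1.38 and -4.43.

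Markers of the sorted cells and of others varied between arrays, and the sums of most lists overlapped between MDS and MDS/MPN. The summed linear signal of the 6 LSK genes (in units of the 75th percentile) was 220 to 254 on the MDS/MPN and 406 to 444 on the MDS arrays. That of 7 neutrophil genes was 909 to 2138 and 623 to 1002, of 6 NK genes 41.8 to 185 and 52.3 to 73.0, of 7 T cell genes 15.2 to 24.7 and 15.6 to 19.99, of 8 plasmacytoid dendritic genes 229 to 280 and 238 to 260, and of 9 monocyte genes 62.6 to 86.4 and 62.9 to 64.7. LSK genes and 6 B cell genes (29.3 to 39.6 and 24.5 to 27.2) did not overlap between the groups, while the sums of the other lists did. Of the 7 T cell genes 3 to 6, and of the 6 NK genes 2 to 5, were well above background on each array. Cd3e, Lck, Prf1 and Nkg7 were so on all 10 arrays. Cd8a, which marks a subset of T cells, and Ncr1, an NK cell receptor, were so on 0. On slide 1 the KO array had 1696 for the neutrophil genes against 201 for the WT, 49.4 against 4.79 for 8 erythroid genes and 155 against 67.0 for the NK genes. Mpo and Elane, the enzymes of primary granules, which progenitors also express, made up the neutrophil difference, with log2 levels 3.66 and 3.46 higher on the KO array. The later neutrophil genes S100a9, Ngp and Ltf were lower there, by 0.34, 0.36 and 2.07, and S100a8 and Camp were 0.23 and 0.50 higher. Most of the NK sum on slide 1 came from Nkg7, at 5.90 on the WT and 7.24 on the KO array. Klrb1c went the other way, at 2.10 and -2.53, and Prf1 read 1.54 and 1.70. Gzma and Klrd1 were 2.65 and 3.29 higher on the KO array, but not well above background on the WT array. The part of other cells in the member values was not tested, and in these sorted bulk samples fewer cells of a type and less RNA per cell cannot be told apart.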

How the data were processed

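The 10 Agilent one-colour arrays held Cy3-labelled RNA of the samples described above, 0.02 µg per array. Spot intensity in the scanner files, background-subtracted and detrended within the array by Feature Extraction 10.7.1.1 per the file headers (annotation on mm9), was not scaled between arrays, and the submitters' processing notes name version 9.1. The deposited value table holds a ratio, found by comparison with the scanner files to be intensity over the 75th percentile of the array. It matched each file with an SD of the log2 difference of at most 0.00089, and at least 0.310 against any other, with the time labels of 4 arrays exchanged. Times are those of the scanner files.

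Control and outlier spots were left out, spots of 1 probe averaged, and the log2 of the 75th percentile of the array subtracted. Probes were named through the RefSeq table of GRCm38.p6: of 29123 with a RefSeq accession, 27656 matched 1 symbol, and 28025 unnamed probes stayed in as features of their own. Each gene was read from its brightest probe. A feature was tested when well above background on at least 50% of the arrays of 1 group, with limma 3.58.1 in R 4.3.3 (lmFit, eBayes) and Benjamini-Hochberg adjustment over all features at 0.05. The scripts were tested on simulated data. The mixed array entered only the fit of all KO arrays. The number of arrays limits the precision, and no label says whether replicates are separate mice.

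The members and lists were chosen with earlier results of these data known, so lists are described by counts and medians and not tested. Values on every array are given for members past the threshold, for 12 chosen members, and for up to 4 per role with the largest difference in all KO against both WT, and of other pathway genes for up to 3 per list. Mx1, one of the 12, had no named probe. Alternatives covered normalization, filters, probe choice, labels and left-out arrays. Of these, the percentile over detected probes and raised dim values were chosen after seeing the data.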

Additional observations from a re-analysis of the deposited data

Results flagged for a closer look

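Of 37 sets of 6 KO values at 9-12 months checked for a value far from the others, 1 was picked out, and chance alone would pick about 1 set in 20. Irf9 read 4.71 on the array of undetermined disease, while the other 5 KO arrays read 3.99 to 4.13.

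Parp9, a protein of the ADP-ribosyltransferase family, was picked out because KO and WT differed in opposite directions on the slides. Its KO array was 0.41 above the WT on slide 1, and all 6 KO arrays at 9-12 months were 0.19 to 0.68 lower than the WT of slide 2. The limma test of the difference between the slides, which takes the spread of the 6 KO arrays, gave 0.89 ± 0.69 (SE, adjusted p = 0.9998).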

How the results depend on the processing

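No member was called under any of the 18 alternatives for KO against WT at 9-12 months, the 15 for MDS/MPN against MDS or the 19 for all KO against both WT, with limma and its threshold of 0.05. The median over members in MDS/MPN against MDS was 0.16 to 0.57 with 1 array left out, and the type I-type median -0.21 to 0.76, the lower ends without MDS/MPN replicate 2, whose 75th percentile was the brightest. The gamma-type medians stayed above 0 under every alternative run for the 3 tested comparisons: 0.07 to 0.58 at 9-12 months, where the MDS arrays alone gave the lowest, 0.74 to 1.04 in MDS/MPN against MDS and 0.42 to 0.77 in all KO. The type I-type median was -1.04 to -0.32 at 9-12 months and -0.46 to 0.40 in all KO. With the time labels of the value table, the comparison at 9-12 months gave 0.46 for the gamma-type and -0.32 for the type I-type genes. Scaling to the 75th percentile of probes detected on every array moved the median of all features to -0.14 at 9-12 months, -0.18 in MDS/MPN against MDS, -0.17 in all KO and -0.14 on slide 1.

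Features called at 9-12 months numbered 115, with 247 under quantile normalization, 212 under the scaling above, 182 with the mixed array added and 50 without the filter. They numbered 0 with detection required on every array, with trend and robust settings, with dim values raised and with MDS arrays alone, and 0 to 215 with 1 array left out. In all KO against both WT there were 3, with 6 under that scaling, 0 under normexp, the stricter filter, no filter or trend and robust settings, 182 without slide 1 and 0 to 154 with 1 array left out. No paired analysis was possible because each group's replicate numbers only name its arrays and mark no shared animal or batch. Probes of low signal set a limit: 7 members were not well above background on every array. A second Xaf1 probe read 2.70 on the WT array of slide 2 and was dim on most others, which the first probe did not show.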
